A study of Mus musculus with 6 samples.

Results

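The MEF2 transcription factors Mef2a, Mef2b, Mef2c and Mef2d and the class IIa histone deacetylases Hdac4, Hdac5, Hdac7 and Hdac9 were examined in mouse bone marrow cells that carried the leukaemia fusion gene MLL-AF9. Members were all probe sets whose platform annotation names exactly 1 of these 8 genes, which gave 23 of the 45037 non-control probe sets on the array (15 for the MEF2 genes and 8 for the deacetylase genes), for 8 of 18193 annotated genes. The genes were picked with their difference between the genotypes already known, so their own differences and calls are given as a description, with no p-value. Mn1null cells had Mn1 deleted with CRISPR-Cas9 (3 arrays), and Mn1wt cells had an intact Mn1 gene (3 arrays). Both genotypes carried MLL-AF9 and an EGFP control vector, were sorted, and were cultured with the cytokines mIL3, hIL6 and mSCF. The mouse strain, the promoter that drives MLL-AF9, the guide RNAs and the number of clones are not stated in the sources used here. The labels do not say that the replicates of a genotype came from separate cultures or animals, so all p-values and intervals measure only the spread between these arrays, which may be technical.

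MEF2 proteins are MADS-box transcription factors that bind an A/T-rich DNA element as dimers. Class IIa deacetylases have little deacetylase activity of their own against acetylated histones, bind the MADS and MEF2 domains, and bring corepressors to MEF2 target genes. Kinases of the SIK, CaMK and PKD families phosphorylate these deacetylases, which then bind 14-3-3 proteins and leave the nucleus, and MEF2 can activate its targets. In blood, Mef2c is known for roles in lymphoid and monocytic development and is expressed in MLL-rearranged leukaemias.

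Each array gave log2 expression values made with RMA, a method that corrects background, normalizes arrays to 1 distribution and summarises probes. Array medians lay between 5.17 and 5.23. Of 14680 genes tested, 48.8% differed between the genotypes at an adjusted p under 0.05 with limma, 23.2% higher and 25.6% lower in Mn1null, so a call by itself was common in this comparison. The single Mn1 probe set read 4.21, 4.12 and 4.07 in Mn1null and 4.49, 4.12 and 4.44 in Mn1wt, and its place relative to the deletion is not stated in the sources used here, which leaves the labels unchecked by it. Ptprc, a gene of blood cells in general, was high in both genotypes (11.57 in Mn1null and 11.54 in Mn1wt). So was the granulocyte marker Mpo (14.11 in Mn1null and 13.84 in Mn1wt). Of the 8 genes listed as progenitor and granulocyte markers, limma called 3 higher and 3 lower in Mn1null. Itgam, Cd34 and Mpo rose by 0.84, 0.79 and 0.28, and Prtn3, Ctsg and Kit differed by -0.46, -0.27 and -0.17. Bacterial transcripts added as labelling controls also differed, with a 5′ average of 6.47 ± 0.059 in Mn1null and 7.32 ± 0.101 in Mn1wt (SD, n = 3 each). The difference was -0.85 for the 5′ probe sets of these controls, -0.49 for the middle ones and -0.30 for the 3′ ones. Controls added at hybridisation differed by -0.10. The part of such labelling differences in the differences below was not tested.

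Mef2c had the largest differences of the 8 genes. All 5 of its probe sets were far lower in Mn1null, with values between 3.07 and 5.17 in Mn1null and between 8.96 and 11.24 in Mn1wt. The probe set with the highest mean, 1424852_at, read 4.52, 4.49 and 4.46 in Mn1null, against 11.08, 11.24 and 11.20 in Mn1wt. Every Mn1null array lay under the array medians (5.17 to 5.23) and every Mn1wt array far above them, with no overlap. The difference was -6.69 ± 0.065 (SE, 95% interval -6.84 to -6.54), which is 103-fold as Mn1wt over Mn1null. In RNA from a mixed population, fewer Mef2c-expressing cells and less Mef2c RNA per cell cannot be told apart.

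Of the other Mef2c probe sets, 1421027_a_at read 3.56, 3.69 and 4.08 in Mn1null, against 10.07, 10.10 and 10.25 in Mn1wt, a difference of -6.37 ± 0.134. Probe set 1451507_at read 3.44, 3.07 and 3.71 in Mn1null, against 8.96, 9.17 and 8.99 in Mn1wt, a difference of -5.63 ± 0.155. The Mn1null means of these 2 probe sets (3.77 and 3.41) were below 4.07, a filter level for low values set at the 30th percentile of probe set means. Probe set 1451506_at read 5.12, 4.67 and 5.17 in Mn1null, against 10.40, 10.07 and 10.11 in Mn1wt, a difference of -5.21 ± 0.15. Probe set 1421028_a_at read 4.28, 4.37 and 4.30 in Mn1null, against 9.51, 9.42 and 9.43 in Mn1wt, a difference of -5.14 ± 0.062. For each of the 5 probe sets all 3 Mn1null arrays lay under all 3 Mn1wt arrays, and the arrays nearest to each other across the genotypes were still 4.9 apart. As Mn1wt over Mn1null, the 5 ratios ran from 35.3-fold to 103-fold, and they understate the difference where the Mn1null value is near the low end of the scale. The probe sets ranked 2, 4, 6, 8 and 9 among the 45037 when ordered from the most negative difference.

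**Figure D1:**
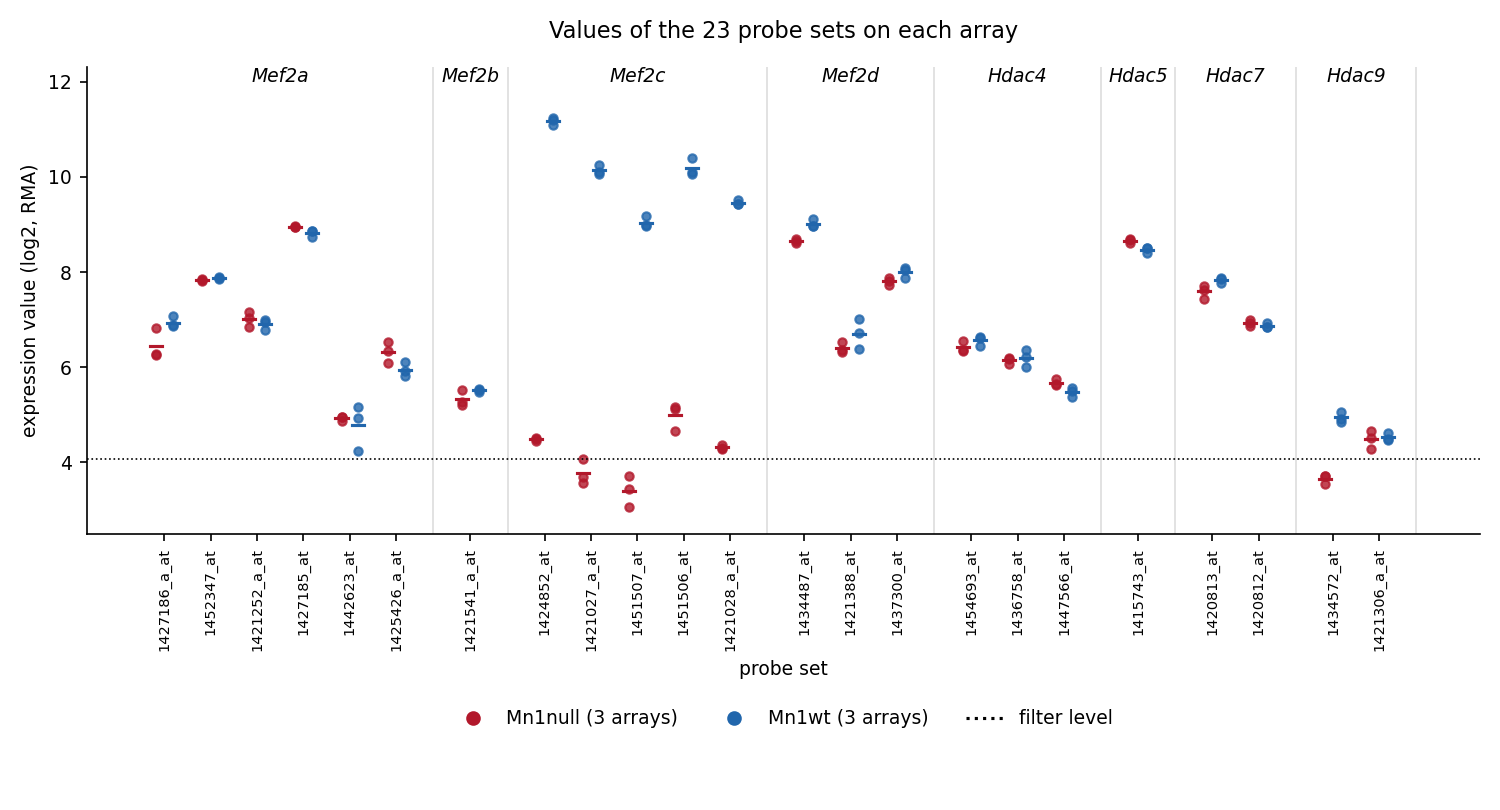
Log2 expression value (vertical axis) of each of the 23 probe sets (horizontal axis, grouped by gene), with 1 point per array, short bars for the group mean of 3 arrays, Mn1null in red left of Mn1wt in blue, and a dotted line at the filter level of 4.07. The 5 Mef2c probe sets lie between 3.07 and 5.17 in Mn1null and between 8.96 and 11.24 in Mn1wt, while the arrays of most other probe sets lie close together, except Hdac9 1434572_at.

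Mef2c spans chr13:83504017-83667079 on the plus strand in RefSeq's annotation of GRCm38.p6, and RefSeq start sites there gave 3 promoter windows of 250 bases before to 50 bases after the start. They are shown because Mef2c is the member with the largest difference and its start sites lie apart from each other. The array values do not say which start was used.
Mef2c window 1 (chr13:83503784-83504083, plus strand): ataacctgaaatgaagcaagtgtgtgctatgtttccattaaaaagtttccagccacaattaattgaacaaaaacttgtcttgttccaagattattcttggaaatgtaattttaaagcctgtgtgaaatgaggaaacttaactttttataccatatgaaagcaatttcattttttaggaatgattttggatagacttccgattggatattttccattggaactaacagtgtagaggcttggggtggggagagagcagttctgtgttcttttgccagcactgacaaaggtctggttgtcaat
Mef2c window 2 (chr13:83523406-83523705, plus strand): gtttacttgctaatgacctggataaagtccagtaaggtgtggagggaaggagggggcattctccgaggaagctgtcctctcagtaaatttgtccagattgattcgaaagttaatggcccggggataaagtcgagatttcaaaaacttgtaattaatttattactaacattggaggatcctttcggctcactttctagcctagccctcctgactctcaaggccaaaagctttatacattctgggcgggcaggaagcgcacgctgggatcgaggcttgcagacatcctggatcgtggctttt
Mef2c window 3 (chr13:83573357-83573656, plus strand): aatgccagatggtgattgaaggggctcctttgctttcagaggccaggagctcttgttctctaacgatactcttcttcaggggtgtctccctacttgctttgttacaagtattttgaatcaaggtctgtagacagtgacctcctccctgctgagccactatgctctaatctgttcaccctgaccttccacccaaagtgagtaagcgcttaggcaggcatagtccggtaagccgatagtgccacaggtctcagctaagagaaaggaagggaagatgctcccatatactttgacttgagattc
The G and C content of these windows was 35.7%, 47.0% and 48.3%, against a median of 52.7% over 32851 RefSeq promoter windows, and 4.6% of all windows had less than the first of them. The first window holds 1 CG dinucleotide, the second 10 and the third 4. No letters are in capitals because none of the 3 windows matches the MEF2 consensus, a palindromic A/T-rich element searched on both strands. A wider form, with any base at the first and last position, matches once in the first window and in neither of the others, and 9.23% of all windows hold it.

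The other MEF2 genes had small differences. Mef2d, which is broadly expressed in blood cells, had 3 probe sets, all lower in Mn1null. Probe set 1434487_at read 8.69, 8.66 and 8.61 in Mn1null, against 8.96, 8.97 and 9.11 in Mn1wt. Its groups did not overlap, and the difference was -0.36 ± 0.066 (95% interval -0.51 to -0.20), or 1.28-fold as Mn1wt over Mn1null. Probe set 1437300_at differed by -0.20 ± 0.078 without overlap, and 1421388_at by -0.30 ± 0.153 with overlap.

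Mef2a, a broadly expressed family member that is best studied in heart and skeletal muscle, had 6 probe sets whose differences had both signs, from -0.48 to 0.37. The probe set with the highest mean, 1427185_at, read 8.96, 8.94 and 8.95 in Mn1null, against 8.87, 8.73 and 8.86 in Mn1wt, a difference of 0.13 ± 0.064 without overlap. Probe set 1427186_a_at pointed the other way, with 6.83, 6.26 and 6.27 in Mn1null, against 6.86, 6.88 and 7.08 in Mn1wt, a difference of -0.48 ± 0.158. Its groups did not overlap, but its first Mn1null array lay almost as high as the Mn1wt arrays. Probe set 1425426_a_at read 6.34, 6.09 and 6.53 in Mn1null, against 5.92, 6.11 and 5.81 in Mn1wt, a difference of 0.37 ± 0.126 with overlap. The other 3 probe sets differed by -0.04 ± 0.055 (1452347_at), 0.11 ± 0.099 (1421252_a_at) and 0.14 ± 0.210 (1442623_at). The probe sets of Mef2a thus gave no single direction.

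Mef2b, which acts in germinal centre B cells, had 1 probe set that names it alone. It read 5.28, 5.53 and 5.21 in Mn1null, against 5.52, 5.48 and 5.55 in Mn1wt. The groups overlapped, since the second Mn1null array lay among the Mn1wt arrays, and the difference was -0.17 ± 0.090 (95% interval -0.38 to 0.04).

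Among the deacetylases only Hdac9 had a probe set with a difference of at least 1 on the log2 scale, as 3.62% of all non-control probe sets had. Hdac9 encodes several splice forms, among them a short one that lacks the catalytic domain and still binds MEF2. Probe set 1434572_at read 3.54, 3.72 and 3.72 in Mn1null, against 4.86, 4.92 and 5.06 in Mn1wt. All Mn1null arrays lay under the filter level of 4.07 and all Mn1wt arrays lay above it, and the difference was -1.28 ± 0.083 (95% interval -1.48 to -1.09), or 2.44-fold as Mn1wt over Mn1null. The other Hdac9 probe set, 1421306_a_at, read 4.65, 4.29 and 4.51 in Mn1null, against 4.48, 4.61 and 4.50 in Mn1wt, with overlapping groups and a difference of -0.05 ± 0.099. This second probe set has the higher mean and would stand for the gene in an analysis with 1 probe set per gene, where the Hdac9 difference is not seen. The mean over both was -0.67. The sources used here do not say which transcripts each probe set reads.

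Hdac9 spans 869.5 kb at chr12:34047580-34917095 on the minus strand of GRCm38.p6, and RefSeq gives it promoter windows at 2 start sites. They are shown because its probe sets disagree and the starts lie far apart within the gene, and neither window matches the MEF2 consensus, while the second holds 1 match to the wider form.
Hdac9 window 1 (chr12:34917046-34917345, minus strand): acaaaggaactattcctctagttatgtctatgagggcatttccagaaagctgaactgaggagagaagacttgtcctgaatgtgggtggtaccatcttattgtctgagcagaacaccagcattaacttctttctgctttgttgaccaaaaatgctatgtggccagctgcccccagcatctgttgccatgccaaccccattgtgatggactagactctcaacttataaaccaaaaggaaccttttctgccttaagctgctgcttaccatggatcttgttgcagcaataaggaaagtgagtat
Hdac9 window 2 (chr12:34528840-34529139, minus strand): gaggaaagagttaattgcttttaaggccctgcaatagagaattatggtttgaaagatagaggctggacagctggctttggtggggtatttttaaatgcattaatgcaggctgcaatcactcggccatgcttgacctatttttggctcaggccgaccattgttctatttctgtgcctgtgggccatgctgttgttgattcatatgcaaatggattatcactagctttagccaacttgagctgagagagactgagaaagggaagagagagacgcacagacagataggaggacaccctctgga
Their G and C content was 44.0% and 45.3%, and the windows of Mef2c and Hdac9 were the only 5 of the 14 member windows under the median of all windows.

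Hdac5, whose export from the nucleus is driven by CaMK and PKD, was read by 1 probe set, at 8.70, 8.61 and 8.67 in Mn1null, against 8.41, 8.51 and 8.50 in Mn1wt. The Mn1null arrays all lay above the Mn1wt arrays, by 0.18 ± 0.062 on average (95% interval 0.04 to 0.33). Hdac7, known for its role in developing T cells and in endothelium, had 1 probe set (1420813_at) at 7.44, 7.63 and 7.71 in Mn1null, against 7.77, 7.87 and 7.86 in Mn1wt. Every Mn1null array lay below the Mn1wt arrays, with a difference of -0.24 ± 0.083, while its other probe set (1420812_at) had overlapping groups and a difference of 0.06 ± 0.064. Hdac4, which acts in the growth plate and in muscle, read 6.35, 6.36 and 6.56 in Mn1null, against 6.63, 6.44 and 6.62 in Mn1wt on its brightest probe set (1454693_at), with overlap and a difference of -0.14 ± 0.087. Its probe set 1447566_at differed by 0.18 ± 0.073 without overlap and 1436758_at by -0.05 ± 0.101 with overlap.

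Counted together, 7 of the 23 probe sets were called lower in Mn1null by limma at an adjusted p under 0.05 over all 45037 probe sets (5 of Mef2c, 1434572_at of Hdac9 and 1434487_at of Mef2d), where 14.7% of all probe sets were called lower and 27.8% were called in either direction. The other 16 were not called. The groups did not overlap for 14 of the 23, where 41.1% of all probe sets did not overlap. Since this contrast was known when the genes were picked, these counts only describe the members and test nothing. All 23 passed the filter on low values by their mean over all arrays, and 3 of the 7 (Mef2c 1421027_a_at and 1451507_at, and Hdac9 1434572_at) had an Mn1null mean under its level. Outside Mef2c and Hdac9 1434572_at, the differences of the other 17 probe sets ran from -0.48 to 0.37, and the largest ratio was 1.40-fold.

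**Figure D2:**
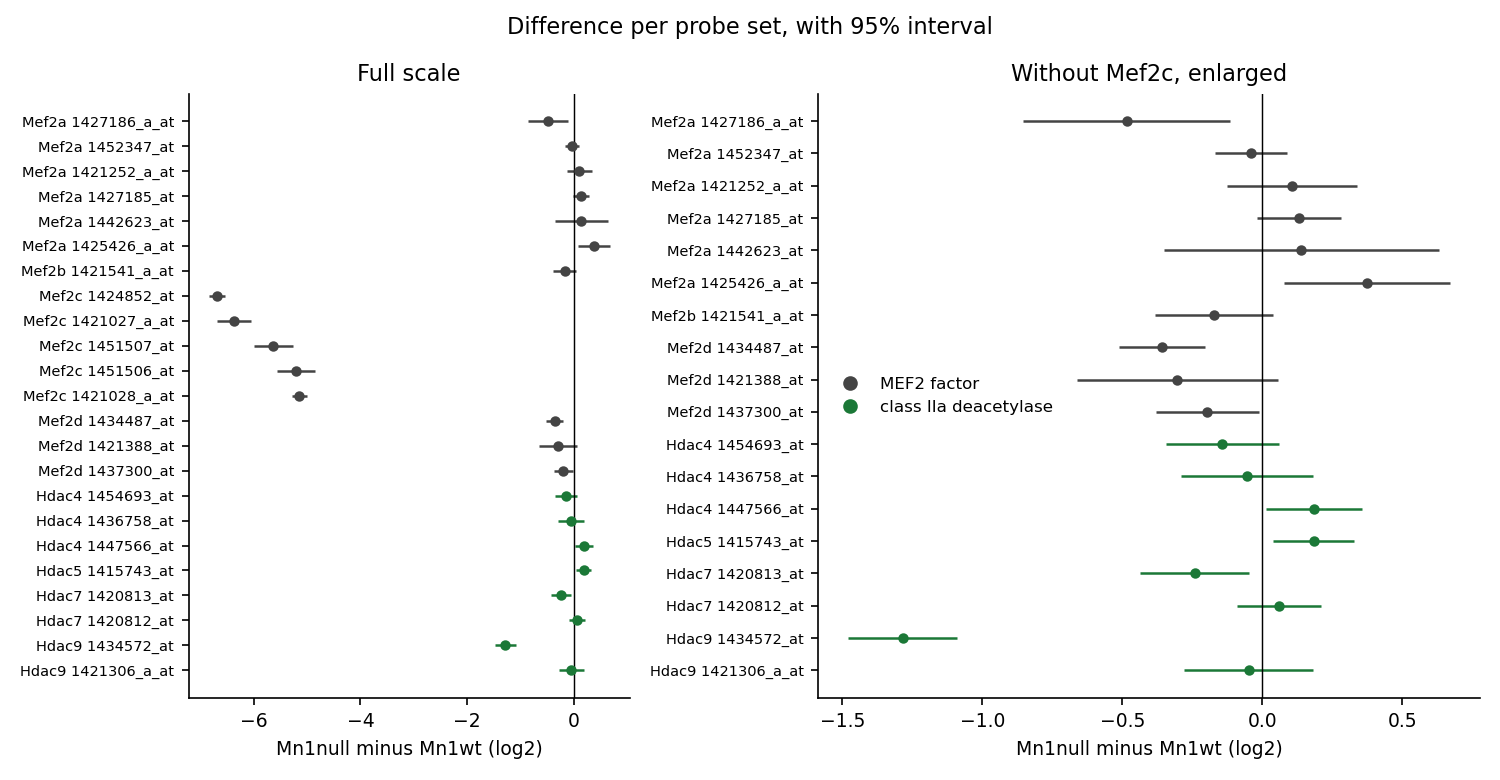
Difference between Mn1null and Mn1wt on the log2 scale (horizontal axis) for each probe set (vertical axis), with its 95% interval from limma. The left panel shows all 23 and the right panel enlarges the 18 that are not of Mef2c. Mef2c lies at -6.69 to -5.14, Hdac9 1434572_at at -1.28, and the rest within -0.48 to 0.37.

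The genes with the pattern most like that of Mef2c over the 6 arrays were found by the root mean square distance between values centred on each gene's own mean. They were Lhfp at a distance of 0.13, Hpgd, which inactivates prostaglandins, at 0.196, F13a1, a clotting factor gene, at 0.508, Ctss, a protease of lysosomes, at 0.666, and the collagen gene Col19a1 at 0.893. With 3 arrays per genotype this measure reads mostly the size of the difference, which was -6.54 for Lhfp, -7.03 for Hpgd, -5.69 for F13a1, -5.39 for Ctss and -4.91 for Col19a1.

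F13a1 and Ctss are also markers of monocytes and macrophages. Of the 8 such markers tested, 5 were lower and 1 was higher in Mn1null, with a median difference of -1.64. Their summed linear values were 971.3 to 990.7 in Mn1null and 8006 to 8588 in Mn1wt. F13a1 and Ctss, picked above for their likeness to Mef2c, weighed most in the Mn1wt sums, with means of 12.40 and 10.35. Among the other markers Ccr2, Irf8 and Csf1r were also lower, with differences of -3.60, -1.79 and -1.50. Adgre1 rose by 1.11, and Cd68 and Cx3cr1 differed by -0.05 and 0.07. Mast cell and basophil markers moved the other way, with 6 of 8 higher in Mn1null and sums of 14970 to 15590 in Mn1null and 3750 to 3848 in Mn1wt. Hdc and Cpa3 rose most, by 4.56 and 4.13, while Tpsb2 and Cma1, with low values, differed by -0.08 and -0.15. Markers of B cells, in which Mef2c is known to be expressed, summed to 158.1 to 174 in Mn1null and 200 to 204 in Mn1wt. Of the 4 tested, 1 was lower and 0 were higher. The lower one was Cd79b, with a difference of -0.91, while Cd79a, Pax5 and Ebf1 differed by 0.18, 0.10 and 0.22. Other marker sums differed too. They were 3185 to 3603 in Mn1null and 769.2 to 831.7 in Mn1wt for megakaryocytes (2 of 5 tested markers higher and 2 lower). Itga2b, at 11.54 in Mn1null and 7.92 in Mn1wt, weighed most in the Mn1null sums, while Pf4 and Ppbp differed by -0.98 and -1.07. Erythroid markers, of which all 3 tested were higher, summed to 1023 to 1057 in Mn1null and 460.2 to 479.9 in Mn1wt. Stromal and endothelial markers, of which 2 of 6 were higher, summed to 2063 to 2175 in Mn1null and 700.5 to 779.9 in Mn1wt. The 2 were Pecam1 (10.84 in Mn1null and 9.06 in Mn1wt), which weighed most in the sums, and Pdgfrb (7.38 and 5.62). Col1a1, Col1a2, Cdh5 and Kdr were not called and differed by -0.18 to -0.06. For dendritic cells, with 2 of 5 higher, the sums were 315.5 to 352.8 in Mn1null and 224.6 to 250 in Mn1wt. Flt3 (7.83 in Mn1null and 7.10 in Mn1wt), which weighed most in the sums, and Itgax (5.36 and 4.91) were the 2 higher. Siglech, Cd209a and Xcr1 had low values and differed by -0.07, 0.10 and -0.12. For T and NK cells the sums overlapped. Hba-a1, Cd3g and Pdgfra lay under the filter level on all arrays. The part of these cell type markers in the Mef2c difference was not tested.

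The neighbours of Mef2c on the chromosome had far smaller differences than Mef2c. Of the 3 nearest tested genes on each side, Polr3g (-0.22, limma adjusted p = 0.00779), Tmem161b (-0.23, adjusted p = 0.046) and Ccnh (-0.23, adjusted p = 0.00773) fell, and Cetn3, Mblac2 and Rasa1 did not pass, with differences of 0.02, 0.06 and 0.03. These genes lie 555.2 to 1793 kb from Mef2c. With 5 genes on each side, 5 of 10 were lower, and the most negative was Vcan, which encodes the proteoglycan versican, at -1.03 and 5988.2 kb away. Around all 8 genes, 16 of the 48 nearest genes were higher and 14 were lower, with a median difference of -0.03, beside 23.2% higher, 25.6% lower and a median of -0.0053 over all 14680 genes.

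**Figure D3:**
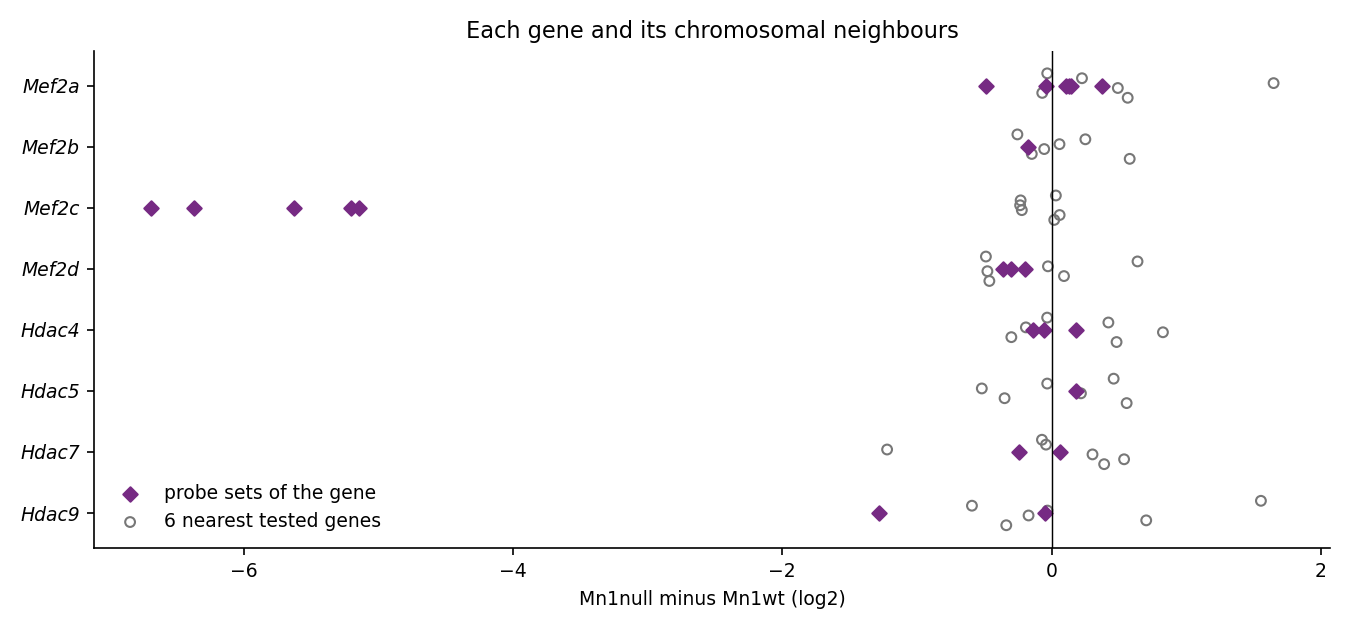
Difference between Mn1null and Mn1wt on the log2 scale (horizontal axis) for the probe sets of each of the 8 genes (filled diamonds) and for the 3 nearest tested genes on each side of it (open circles), with 1 line per gene; height within a line has no meaning. The 6 neighbours of Mef2c lie at -0.23 to 0.06, against -6.69 to -5.14 for Mef2c itself.

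The kinases that phosphorylate class IIa deacetylases, with the kinases upstream of them, had calls of both signs. In Mn1null 5 of the 20 tested genes rose, 7 fell and 8 were not called, and the median difference was -0.0032. The counts of this and the following lists stand beside 23.2% higher and 25.6% lower over all 14680 tested genes. For the genes named from these lists as rising or falling, limma's adjusted p was at most 0.0122 unless another is printed. Among the salt-inducible kinases, the brightest probe sets of Sik2 and Sik3 rose and that of Sik1 fell. Sik2 averaged 9.0 ± 0.03 in Mn1null and 8.33 ± 0.142 in Mn1wt (SD, n = 3 each), a rise of 0.67 ± 0.076 (SE, adjusted p = 3.13e-04), while its other probe sets differed by 0.19 and 0.06. Sik1, an inducible member of the family, averaged 4.60 ± 0.300 in Mn1null and 5.44 ± 0.210 in Mn1wt, a difference of -0.85 ± 0.166 (adjusted p = 0.00464). Sik3 rose by 0.42 ± 0.079 on its brightest probe set (adjusted p = 0.00368) and did not pass when its probe sets were averaged (adjusted p = 0.12). Stk11, which encodes the upstream kinase LKB1, rose by 0.24 ± 0.054 on its brightest probe set and differed by -0.34 on the other. Camkk2, which activates CaMK1, CaMK4 and AMPK, fell by 0.91 ± 0.065 (adjusted p = 4.06e-05), and Prkd2, a protein kinase D, fell by 0.79 ± 0.055 (adjusted p = 3.60e-05).

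Of the 14-3-3 genes, whose proteins hold phosphorylated class IIa deacetylases in the cytoplasm, 2 of 7 rose (Ywhag by 0.28 ± 0.053 and Ywhaq by 0.23 ± 0.044), 1 fell (Ywhae fell by 0.43 ± 0.048) and 4 did not pass. Their median difference was -0.03, and adjusted p of the 3 named lay between 3.05e-04 and 0.00424.

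The MAP kinases that phosphorylate MEF2, with their upstream kinases, gave 1 rise and 3 falls among 10 genes, with a median difference of -0.02. Mapk12, which encodes p38 gamma, read 7.11, 7.19 and 7.38 in Mn1null, against 4.21, 4.38 and 3.67 in Mn1wt. All Mn1null arrays lay well above the Mn1wt arrays, whose mean of 4.08 was near the filter level, and the difference was 3.14 ± 0.179 (limma adjusted p = 1.39e-05). The other probe set of Mapk12 differed by 0.10, so the rise rests on 1 of its 2 probe sets. Mapk7, which encodes ERK5, fell by 0.35 ± 0.054, Map2k6 fell by 0.37 ± 0.065 and Map2k3 fell by 0.22 ± 0.045. A fit limited to probe sets for 1 transcript gave 0 rises and 0 falls in this list. Mapk12, Mapk7, Map2k6 and Map2k3 had no such probe set and so no value in that fit.

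Calcineurin opposes these kinases by removing phosphate, and its list with NFAT gave 5 rises and 3 falls among 12 genes, with a median difference of 0.18. Nfatc1 averaged 8.74 ± 0.0048 in Mn1null and 8.06 ± 0.031 in Mn1wt (SD, n = 3 each), a rise of 0.68 ± 0.043 (limma adjusted p = 2.14e-05), while its other 4 probe sets differed by -0.10 to 0.19. The calcineurin regulators Rcan3 and Rcan1 rose by 0.63 ± 0.052 and 0.43 ± 0.059, although the other Rcan3 probe set differed by -0.05. The catalytic subunit gene Ppp3cb fell by 0.40 ± 0.047 and Nfatc3 fell by 0.32 ± 0.067. The regulatory subunit gene Ppp3r1 differed by -0.17 ± 0.055 with an adjusted p of 0.0436, and this call was lost under 11 of 16 other settings.

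Corepressors that class IIa deacetylases bring to DNA gave 1 rise and 4 falls among 10 genes, with a median difference of -0.14. Ctbp2, a corepressor that binds the amino-terminal part of these deacetylases, read 9.28, 9.17 and 9.18 in Mn1null, against 10.89, 10.84 and 10.83 in Mn1wt. The groups were far apart, the difference was -1.64 ± 0.051 (limma adjusted p = 1.07e-06), and its other probe set gave -1.55. Tbl1xr1, a subunit of the NCoR and SMRT complexes, fell by 0.47 ± 0.042, and Cbx5, which encodes heterochromatin protein HP1 alpha, fell by 0.40 ± 0.051. Hdac3, the enzyme that supplies activity to these complexes, averaged 10.46 ± 0.018 in Mn1null and 10.44 ± 0.017 in Mn1wt, a difference of 0.02 with a 95% interval of -0.08 to 0.12 (adjusted p = 0.725). Ankra2, an ankyrin-repeat protein that binds Hdac4 and Hdac5, rose by 0.83 ± 0.052 on its brightest probe set and differed by -0.34 on the other.

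Among the deacetylases of the other classes, 6 of 14 rose (42.9%), 2 fell (14.3%) and 6 were not called (median difference 0.15). Over all tested genes 23.2% were higher and 25.6% lower. The tubulin deacetylases Sirt2 and Hdac6 rose by 0.49 ± 0.048 and 0.42 ± 0.042, and Hdac11, the class IV enzyme, rose by 0.41 ± 0.068. The largest difference was that of Sirt1, an NAD-dependent deacetylase, which averaged 8.46 ± 0.15 in Mn1null and 9.33 ± 0.071 in Mn1wt (SD, n = 3 each), and fell by 0.87 ± 0.083 (limma adjusted p = 1.52e-04). Hdac2 fell by 0.26 ± 0.059 and did not pass when its probe sets were averaged (adjusted p = 0.336).

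The serum response factor gene Srf, another MADS-box factor, was listed with its cofactors and with coactivators, and 1 of 10 rose and 2 fell, with a median difference of 0.03. Srf fell by 0.41 ± 0.044 (limma adjusted p = 2.54e-04), its cofactor Mrtfa rose by 0.52 ± 0.078, and the arginine methyltransferase Carm1, a MEF2 coactivator, fell by 0.73 ± 0.081. The acetyltransferase genes Ep300 and Crebbp, whose products bind MEF2 when deacetylases leave, did not pass, with differences of 0.11 and 0.0057.

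Genes reported as controlled by MEF2 in blood, lymphoid or vascular cells moved both ways, with 3 of 18 higher, 6 lower and 9 not passing, and a median difference of 0.02. Egr1, an immediate early transcription factor, read 10.58, 10.57 and 10.58 in Mn1null, against 8.47, 8.43 and 8.51 in Mn1wt. It was higher on every Mn1null array, by 2.10 ± 0.045 (limma adjusted p = 2.06e-07). Cxcr4, a chemokine receptor, rose by 0.45 ± 0.043, and Bcl2l1, which encodes BCL-XL, rose by 0.30 ± 0.073. Irf8, a transcription factor of monocyte and dendritic cell development and also 1 of the monocyte markers above, read 6.86, 6.76 and 6.91 in Mn1null, against 8.63, 8.51 and 8.75 in Mn1wt. Every Mn1null array was lower, by a difference of -1.79 ± 0.075 (adjusted p = 3.53e-06). Jun read 5.01, 4.57 and 5.16 in Mn1null, against 6.38, 6.13 and 6.28 in Mn1wt, a difference of -1.35 ± 0.151 (adjusted p = 3.10e-04). Dusp6, a phosphatase that acts on ERK, fell by 0.91 ± 0.051.

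Genes reported as MEF2 targets in muscle or neurons had 1 call. Of 13 tested, Homer1, a scaffold protein of synapses, fell by 1.15 ± 0.057 (limma adjusted p = 7.17e-06), and the other 12 did not pass. Apart from Nr4a3 (6.49 in Mn1null and 6.51 in Mn1wt), the means of those 12 were low. They lay between 4.25 (Myl2 in Mn1wt) and 5.78 (Ckm in Mn1null), and such low signals limit what could be called. The median difference of the 13 was -0.04. The Homer1 means were 7.18 ± 0.073 in Mn1null and 8.33 ± 0.052 in Mn1wt (SD, n = 3 each).

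**Figure D4:**
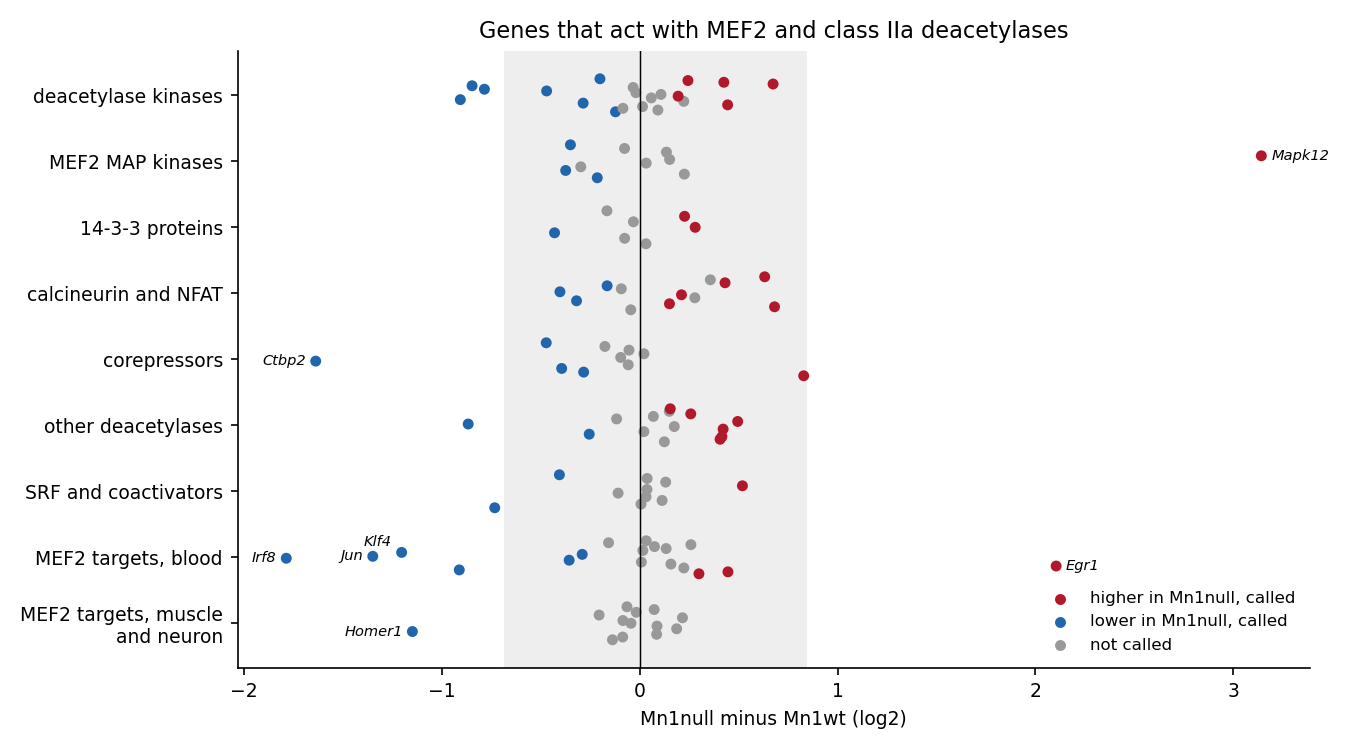
Difference between Mn1null and Mn1wt on the log2 scale (horizontal axis) for the tested genes of 9 lists (vertical axis), with 1 dot per gene, red where limma called the gene higher in Mn1null, blue where it called it lower and grey otherwise; height within a list has no meaning. The grey band runs from the 5th to the 95th percentile of all tested genes (-0.68 to 0.84). Each list except the last holds dots on both sides among its calls, and names mark genes beyond 1 in either direction.

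The MEF2 consensus was then searched in the promoter windows of RefSeq on both strands. It is palindromic, and some of its forms contain a TATA box. It was found in 1047 of 32851 windows (3.19%), and in 179 of these (17.1%) the match holds TATAAA. Of the 14 windows of the 8 genes, 2 hold a match, those of Mef2a and Hdac5, which are shown with the matching letters in capitals.
Mef2a (chr7:67372809-67373108, minus strand): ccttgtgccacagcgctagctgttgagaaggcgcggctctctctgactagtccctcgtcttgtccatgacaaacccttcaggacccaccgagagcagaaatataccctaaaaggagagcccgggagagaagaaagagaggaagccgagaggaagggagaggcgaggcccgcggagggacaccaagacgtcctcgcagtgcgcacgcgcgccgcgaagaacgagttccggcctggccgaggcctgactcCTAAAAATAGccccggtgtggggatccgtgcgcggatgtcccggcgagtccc
Hdac5 (chr11:102230123-102230422, minus strand): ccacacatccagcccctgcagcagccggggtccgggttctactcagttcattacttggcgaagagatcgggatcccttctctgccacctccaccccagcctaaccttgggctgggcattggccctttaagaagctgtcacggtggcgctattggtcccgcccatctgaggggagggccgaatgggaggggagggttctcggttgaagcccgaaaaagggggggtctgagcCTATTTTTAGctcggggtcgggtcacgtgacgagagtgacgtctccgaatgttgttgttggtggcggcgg
The match begins 2 bases before the start in Mef2a and 20 bases before it in Hdac5. As given above, Mef2a differed by 0.13 on its brightest probe set and Hdac5 by 0.18.

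The share of called genes is given for genes with and without a match. Of the 14680 tested genes, 11738 had a window. Of the 255 with a match, 57 were higher (22.4%) and 60 lower (23.5%) in Mn1null, with a median difference of 0.0027. Of the 11483 without a match, 2721 were higher (23.7%) and 3023 lower (26.3%), with a median of -0.0062. The wider form, which also matches in a window of Mef2c and of Hdac9, was found in 673 tested genes, of which 147 were higher and 153 lower. A match is a description of letters in a short window, and MEF2 sites elsewhere were not searched.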

How the data were processed

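Each of 6 RNA samples was read on its own one-colour Affymetrix array. The deposited values are on the log2 scale, 1 per probe set, and the authors made them with RMA per the submitters' processing notes, in a version not stated in the sources used here. RMA equalises the arrays and compresses low signals. Of 45101 probe sets, 64 controls were left out, and of the other 45037 the platform annotation named 1 gene for 34945, several for 932 and none listed for 9160.

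Mn1null and Mn1wt were compared with limma 3.58.1 (lmFit, then eBayes, R 4.3.3), 2-sided, with Benjamini-Hochberg adjustment and a threshold of 0.05, for all non-control probe sets and for 14680 genes, each read by the brightest of its probe sets over all arrays, after 3513 genes with a mean under the 30th percentile (log2 4.07) were left out. The number of arrays limits the precision. The members, gene lists, markers and settings were chosen with earlier results of these data known. From each list up to 3 called genes per direction with the smallest p were named. Genes were named from the platform annotation, and places and promoter sequences came from RefSeq (GRCm38.p6).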

Additional observations from a re-analysis of the deposited data

How the results depend on the processing

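The settings tried for probe sets were array weights, quantile normalization, eBayes with a trend and robust estimation, centring on array medians, a threshold of 0.01, a filter at the 30th percentile, the replicate block and each array left out in turn. The members were chosen for this contrast, so only the size of their differences is given. The Mef2c difference on 1424852_at ran from -6.74 to -6.66 when 1 array was left out, and it was -5.81 with the mean of all its probe sets in place of the one with the highest mean. Hdac9 1434572_at ran from -1.33 to -1.22 when 1 array was left out. Without Mn1null replicate 2 the difference of Hdac9 1421306_a_at changed sign, and without Mn1wt replicate 3 those of Hdac4 1436758_at and Mef2a 1442623_at did. Genes called higher in Mn1null ranged from 3053 to 3212 and genes called lower from 3311 to 3471 when 1 array was left out. Same-numbered replicates of the genotypes deviated with correlations of -0.039, 0.109 and 0.08, and differently numbered ones with -0.216 to 0.143. With 3 arrays per genotype these values cannot settle whether the numbers pair the arrays. The fit with the replicate block called 6943 genes and 11196 probe sets, against 7170 and 12528 without it. Of 38 named list genes, 32 kept their call under every alternative that gave a value, and Stk11 and Ankra2 changed direction with other probe sets. List counts moved by over 1.5 times in 31 of 288 list results, and 25 of 80 neighbours were lower with 5 genes on each side. Signals near the low end of the scale limit the Mef2c and Hdac9 ratios.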

Other observations

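Genes next to the members included some with large differences of their own. Lrrc28, 137 kb from Mef2a, rose by 1.65 ± 0.043 (SE, limma adjusted p = 5.26e-07), and Tspan13, a tetraspanin gene 1097.5 kb from Hdac9, rose by 1.55 ± 0.092 (adjusted p = 1.71e-05). Vdr, which encodes the vitamin D receptor and lies 9.9 kb from Hdac7, averaged 5.16 ± 0.085 in Mn1null and 6.39 ± 0.049 in Mn1wt (SD, n = 3 each), a difference of -1.22 ± 0.059 (adjusted p = 6.61e-06). Per2, a circadian clock gene 469.4 kb from Hdac4, rose by 0.83 ± 0.074 (adjusted p = 1.08e-04). Ahr, the aryl hydrocarbon receptor gene near Hdac9, fell by 0.59 ± 0.147 (adjusted p = 0.0134).

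A probe set left out by the rule names both Borcs8 and Mef2b, which lie next to each other. It read 10.30, 10.19 and 10.32 in Mn1null, against 9.56, 9.66 and 9.66 in Mn1wt, a difference of 0.64 without overlap. The probe set that names Borcs8 alone rose by 0.58 ± 0.081 (limma adjusted p = 9.22e-04), and the one that names Mef2b alone differed by -0.17. Which of the 2 genes the shared probe set reads was not tested.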
